A study of Mus musculus with 4 samples.

Results

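Regions of open chromatin at the ends of long non-coding RNA genes were examined in 4 ATAC-seq libraries of the iMGT-Myh6-eGFP-MEF line. ATAC-seq uses the Tn5 transposase to cut and tag DNA that is not wrapped tightly in nucleosomes, and clusters of cuts are listed as peaks. Where peaks of different libraries on chromosomes 1 to 19 and X overlapped by 1 bp or more they were joined, which gave 90202 regions. A region was taken as a non-coding RNA end region when it lay within 1 kb of either end of a RefSeq long non-coding RNA (lncRNA) gene and over 5 kb from every end of a protein-coding gene. This rule uses positions and no measured strength, although a wider region meets it more readily, and it left 2973 of the 90202 regions. They were set beside 60132 other distal regions, which lie over 5 kb from coding gene ends and over 1 kb from lncRNA ends, and beside 14767 regions within 1 kb of a coding gene end.

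The cells are mouse embryonic fibroblasts with an inducible trio of heart factors, Mef2c, Gata4 and Tbx5 (MGT), and by its name the line also has an eGFP reporter driven by Myh6, a myosin gene of heart muscle. Of the libraries, 2 received siChst7, an siRNA against a sulfotransferase gene of chondroitin sulfate synthesis, and 2 received siControl, a control siRNA. Both siRNAs were given before doxycycline at 1 μg/mL, and all 4 libraries were taken at day 1 after induction, so every library carries the reprogramming factors and none is an uninduced fibroblast. Whether the line is 1 clone is not given in the sources used here, and knockdown of Chst7 was not measured in these files. On the chromosomes used, the lists held 74304 and 66079 peaks in siChst7 replicates 1 and 2, and 73806 and 75593 peaks in siControl replicates 1 and 2. Read totals are unknown, and the shortest list is that of siChst7 replicate 2. The replicates carry the word biological in their titles, and separate cultures are not stated, so a p-value measures the spread between these 4 samples. Marker genes were read as genes with a region within 1 kb of an end in all 4 libraries. This held for 10 of 15 fibroblast genes, among them Col1a1, Thy1 and Postn, while Col3a1, Pdgfra, Prrx1 and Lum had no such region in any library. It held for 5 of 11 cardiomyocyte genes (Myh6, Tnnt2, Nppa, Nppb and Myl2), while Myh7, Tnni3, Actn2, Nkx2-5 and Ryr2 had no such region in any library. It held for 0 of 6 endothelial genes, for 1 of 6 immune genes (Cd68) and for 1 of 6 epithelial genes (Krt8).

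LncRNAs are transcripts without a long open reading frame, most of them made by RNA polymerase II from promoters that open their chromatin much as coding genes do. Some act on the locus they are made from, as the imprinted and X-inactivation RNAs do, and others carry microRNAs or small nucleolar RNAs in their introns and exons. Many are known only as predicted transcripts, and a lncRNA often starts at or near an enhancer, so an open region at its end need not be a promoter. The promoter windows of 5 genes are shown because the results return to them. Kcnq1ot1 and Xist are the best known of the imprinted and X-linked RNAs here, 1700028E10Rik had one of the strongest regions, Morrbid holds an AP-1 motif, and Gm31449 stood lower among siChst7 peaks. Each window runs from 250 bases before to 50 bases after the gene start, 5′ to 3′ on the gene's strand, and comes from RefSeq with the build GRCm38.p6, the assembly of mm10. Capitals mark GGGCGG (the GC box), CCAAT and TGANTCA (the AP-1 motif, N being any base) on either strand.

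Kcnq1ot1, chr7:143296498-143296797, minus strand: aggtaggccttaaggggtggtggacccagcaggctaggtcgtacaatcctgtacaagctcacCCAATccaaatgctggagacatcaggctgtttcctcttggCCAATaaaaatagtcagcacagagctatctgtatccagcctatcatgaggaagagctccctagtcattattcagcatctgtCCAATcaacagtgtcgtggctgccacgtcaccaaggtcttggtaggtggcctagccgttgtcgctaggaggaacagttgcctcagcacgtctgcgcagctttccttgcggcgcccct
Xist, chrX:103483184-103483483, minus strand: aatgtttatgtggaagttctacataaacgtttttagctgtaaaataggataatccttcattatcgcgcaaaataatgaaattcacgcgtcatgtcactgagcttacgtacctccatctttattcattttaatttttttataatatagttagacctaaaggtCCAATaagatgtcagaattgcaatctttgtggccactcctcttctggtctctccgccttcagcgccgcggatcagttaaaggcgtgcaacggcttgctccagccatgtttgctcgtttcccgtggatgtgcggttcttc
1700028E10Rik, chr5:151368425-151368724, plus strand: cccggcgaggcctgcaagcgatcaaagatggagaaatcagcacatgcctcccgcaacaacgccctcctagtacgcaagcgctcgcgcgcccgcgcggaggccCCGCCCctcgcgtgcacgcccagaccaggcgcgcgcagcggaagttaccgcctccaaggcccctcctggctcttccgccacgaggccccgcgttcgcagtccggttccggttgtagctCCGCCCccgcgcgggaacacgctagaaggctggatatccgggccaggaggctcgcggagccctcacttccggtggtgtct
Morrbid, chr2:128429302-128429601, minus strand: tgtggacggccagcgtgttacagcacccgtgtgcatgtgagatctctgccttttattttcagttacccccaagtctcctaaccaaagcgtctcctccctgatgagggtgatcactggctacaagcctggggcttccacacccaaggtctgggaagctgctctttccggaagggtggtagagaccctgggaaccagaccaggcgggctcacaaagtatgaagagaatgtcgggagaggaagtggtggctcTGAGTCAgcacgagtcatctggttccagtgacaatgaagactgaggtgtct
Gm31449, chr5:9073453-9073752, plus strand: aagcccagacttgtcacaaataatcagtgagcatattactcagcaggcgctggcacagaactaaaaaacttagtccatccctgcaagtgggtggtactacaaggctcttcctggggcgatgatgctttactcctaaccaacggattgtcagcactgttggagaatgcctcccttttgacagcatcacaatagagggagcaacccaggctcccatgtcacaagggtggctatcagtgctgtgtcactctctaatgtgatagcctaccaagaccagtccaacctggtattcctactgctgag

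The Kcnq1ot1 window held 3 CCAAT motifs, the 1700028E10Rik window 2 GC boxes in the reverse orientation, the Morrbid window 1 AP-1 motif and the Xist window 1 CCAAT motif. None of these 3 motifs was in the Gm31449 window, which says only that these letters are not in that stretch. The GC content of the windows was 69.7% for 1700028E10Rik, 54.7% for Morrbid, 53.3% for Kcnq1ot1, 49.3% for Gm31449 and 41.3% for Xist.

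Most lncRNA gene ends had no open region. The annotation holds 12697 lncRNA genes, of which 11083 have at least 1 end over 5 kb from coding gene ends, and 2587 of these had a region. Of 19935 such ends, 2914 (14.6%) lay within 1 kb of a region, and 2014 (10.1%) within 1 kb of a region called in all 4 libraries. Where the strand was known, gene starts had a region more often than 3′ ends, at 18.3% of 7217 starts and 11.8% of 7706 3′ ends. Starts of genes with a curated transcript had one at 24.2% of 1767, and starts of genes with predicted transcripts at 16.4% of 5450. Among chromosomes the share was highest on chromosome 11, at 19.2% of 1086 ends, and lowest on X, at 37 of 466 ends (7.94%). These shares describe the merged regions and carry no test, since gene ends are not replicates.

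The 2973 regions lay nearest to 2534 genes. Of these genes, 2137 had 1 region, 359 had 2 and 38 had 3 or more. The gene with the most was Gm36405 with 5 regions, and 2810442N19Rik, which lies near Dnm3, and Gm41914, which lies near Agap1, had 4 each. Of the 5 regions at Gm36405, the one called in every library had a −log10 q of 23.5 and 17.9 in the siChst7 libraries and 21.4 and 16.1 in the siControl libraries. The other regions of this gene were each called in 1 to 3 libraries. By transcript support, 830 regions (27.9%) were at genes with a curated transcript. By place, 891 regions (30.0%) lay inside the body of a coding gene, against 55.5% of other distal regions. The median distance to the nearest coding gene end was 28.4 kb.

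Of the 2973 regions, 1975 were called in all 4 libraries, which is 66.4% (exact Clopper-Pearson 95% interval 64.7% to 68.1%, counting error only). The same share was 57.3% (56.9% to 57.6%) of the other distal regions, 83.2% (82.6% to 83.8%) of the regions at coding gene ends and 62.0% of all regions. Another 303 regions were called in 3 libraries, 249 in 2 and 446 in 1. Position relative to the end separated the regions further. Of the 942 regions that lay over the end itself, 82.9% (80.3% to 85.3%) were called in all 4 libraries, a share near that at coding gene ends. Regions up to 0.5 kb away (1067) reached 59.3% and regions 0.5 to 1 kb away (964) reached 58.2%, near the other distal regions. The regions just outside the rule had similar shares, at 62.7% of 830 regions 1 to 1.5 kb away and 56.6% of 740 regions 1.5 to 2 kb away. A wider region covers an end more readily, and the median width was 732 bp over the end, 484 bp up to 0.5 kb away and 490.0 bp at 0.5 to 1 kb. The part of width in the shares was not tested. At the other bound of the rule, 123 regions 5 to 6 kb from a coding end had a share of 69.9%, and 135 regions at lncRNA ends 4 to 5 kb from a coding end, which the rule leaves out, had 72.6%.

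**Figure D1:**
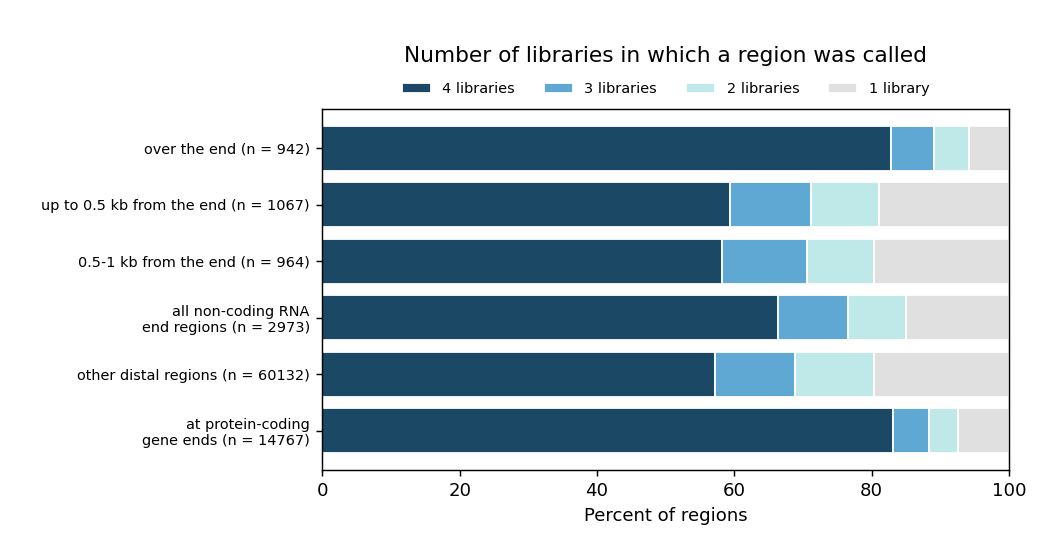
Percent of regions (x axis) called in 4, 3, 2 or 1 of the libraries, for the non-coding RNA end regions by their distance from the end and together, then for the other distal regions and the regions at protein-coding gene ends (y axis, number of regions in brackets). The bar for regions over the end reaches 82.9% in 4 libraries, close to the 83.2% of coding gene ends, and those away from the end stay under 60%.

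By library, 2483 of the 2973 regions (83.5%) were called in siChst7 replicate 1 and 2235 (75.2%) in siChst7 replicate 2, against 2499 (84.1%) in siControl replicate 1 and 2536 (85.3%) in siControl replicate 2. Called in that library alone were 130 and 50 regions in siChst7 and 120 and 146 in siControl. Over all regions, the share called was 81.5% and 72.1% in siChst7 and 80.7% and 82.6% in siControl. Of all regions, 4611 and 1876 were called in a single siChst7 library alone, and 4107 and 5179 in a single siControl library alone. The lowest library was siChst7 replicate 2 over all regions too, so its low values are no result about lncRNA ends. The low values all belong to siChst7 replicate 2, whose list is the shortest over all regions too, and the part of list length in these counts was not tested beyond the equal-length lists given with the comparison of the siRNAs.

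Peaks at lncRNA ends were wider and stronger than other distal peaks in each library. Their median width was 520.0 and 499 bp in siChst7 and 510.0 and 496 bp in siControl, against 456, 436, 443 and 431 bp for other distal peaks in the same order of libraries. The difference averaged 64.8 bp ± 1.71 (SD, n = 4 libraries; range 63 to 67 bp), with the same sign in 4 of 4 libraries (exact sign-flip permutation test, two-sided p = 0.13, the smallest p that 4 libraries allow). A wider region reaches an end more readily, so width is not independent of the rule. Median region width was 732 bp over the end, 484 bp up to 0.5 kb away and 490.0 bp at 0.5 to 1 kb. Other distal regions had 485 bp. The part of this in the differences of peak width and strength was not tested. The deposited fold enrichment, the pileup at a summit over the local background, had medians of 8.05 and 8.44 in siChst7 and 8.23 and 8.17 in siControl at lncRNA ends. It exceeded that of other distal peaks by 0.478 ± 0.0538 (SD, n = 4 libraries; same exact test, p = 0.13). The deposited −log10 q, a measure of how far a peak stands above background that also grows with depth, had medians of 28.9 and 25.1 in siChst7 and 28.3 and 27.3 in siControl. It exceeded that of other distal peaks by 7.61 on average, in 4 of 4 libraries. Coding gene ends stood higher still. Against them, the lncRNA ends differed by −245 bp in median width and by −1.86 in median fold, again in 4 of 4 libraries (exact p = 0.13 for each).

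The start and the 3′ end of a lncRNA gene differed too. The strand was known for 2276 regions, of which 1374 lay at a start and 902 at a 3′ end, while 697 had no strand, including the 95 on chromosome 18. Of the regions at starts 71.0% were called in all 4 libraries and 44.2% lay over the end, and of those at 3′ ends 61.5% and 17.2%. Peaks at starts had a median width of 572 and 548 bp in siChst7 and 546 and 537 bp in siControl. Peaks at 3′ ends had 479 and 458 bp in siChst7 and 470.0 and 466 bp in siControl. Starts were wider by 82.6 bp ± 10.5 (SD, n = 4 libraries) and higher in fold by 0.831 ± 0.0725, in 4 of 4 libraries (exact sign-flip permutation test, two-sided p = 0.13, the smallest possible). The median fold at 3′ ends, 7.62 and 7.93 in siChst7 and 7.88 and 7.75 in siControl, was within 0.1 of that of the other distal peaks, 7.57 and 7.90 in siChst7 and 7.82 and 7.68 in siControl. In the other measures 3′ ends stood above other distal peaks in 4 of 4 libraries. Their median −log10 q was 24.9 and 22.0 in siChst7 and 25.3 and 23.3 in siControl, against 20.4, 18.6, 20.8 and 19.4. Other distal peaks had median widths of 456 and 436 bp in siChst7 and 443 and 431 bp in siControl.

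**Figure D2:**
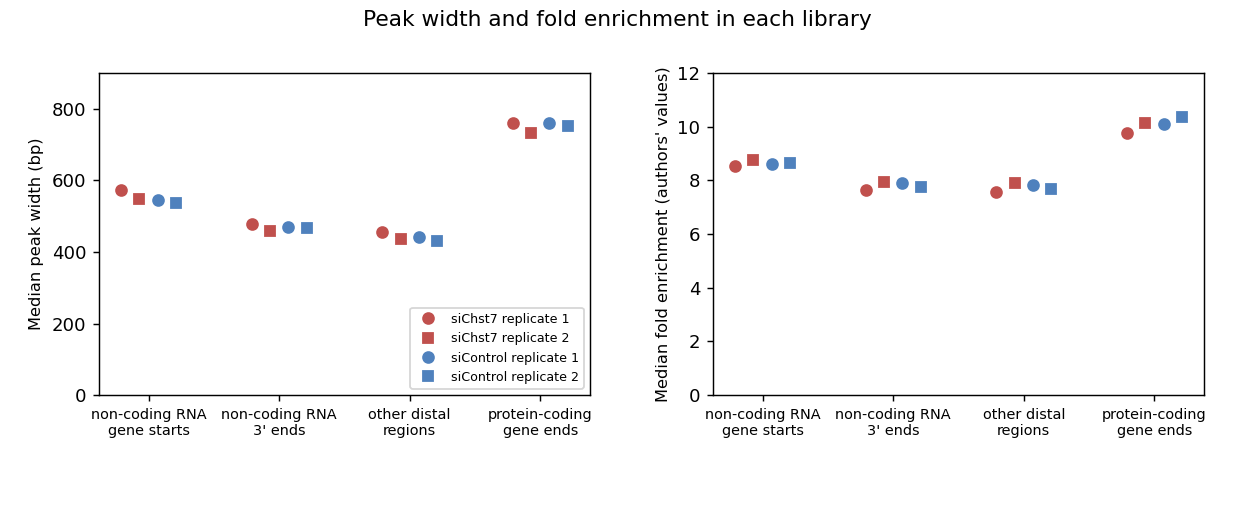
Median peak width in bp (left) and median fold enrichment deposited by the authors (right) in each library, 1 point a library, for peaks at lncRNA gene starts, lncRNA 3′ ends, other distal regions and protein-coding gene ends. Starts stand above 3′ ends and above other distal peaks in each of the 4 libraries, and both axes begin at 0.

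The region with the highest deposited −log10 q lay at AY036118 (chr17:39843057-39848723, mm10), a locus known to resemble the ribosomal RNA repeat. Its −log10 q was 1458 and 1080.4 in siChst7 and 1419.9 and 1428 in siControl, yet its fold was only 3.16 and 3.06 in siChst7 and 3.12 and 3.18 in siControl, and with 5667 bp it was also the widest. The other strong regions were narrower and had higher folds. The region over the start of 1700028E10Rik (chr5:151367994-151369178), inside Stard13, had a −log10 q of 515 and 413 in siChst7 and 452 and 496 in siControl, with folds between 15.2 and 16.5. The region over the start of 6430590A07Rik (chr3:40893775-40894635) had 510.1 and 345 in siChst7 and 461 and 454 in siControl, with folds of 24.4 to 25.5. At 2700038G22Rik, 6.09 kb from Tomm7, the values were 372 and 360.0 in siChst7 and 389 and 391 in siControl. For both 6430590A07Rik and 2700038G22Rik siChst7 replicate 2 was the lowest library.

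The other 6 of the 10 strongest regions lay at Gm52861, Gm36819, Gm46117, 5430416N02Rik, Gm40345 and Gm38560. Gm46117 has a region (chr1:91816082-91817150) 14.6 kb from Twist2, a transcription factor gene of mesenchymal cells. Its −log10 q was 369.6 and 289 in siChst7 and 312 and 312 in siControl. Of these 10 regions 6 lay over a gene start, and each was called in all 4 libraries by the rule that named them. The next widest regions after AY036118 were 2662 bp at the 3′ end of Malat1, 2469 bp inside 2700054A10Rik near its start, 2395 bp over the start of Gm51701 and 2322 bp over the start of B330016D10Rik.

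Known lncRNAs were read from 8 lists with 95 names, of which 77 are lncRNA genes in the annotation. At least 1 region by the rule was found at 31 of the 77, and for 30 of these a region was called in all 4 libraries. Over the whole annotation, 2587 of 12697 lncRNA genes had a region at an end over 5 kb from coding gene ends. At another 24 the only regions lay within 5 kb of a coding gene end, and 22 had no region within 1 kb of an end. The 31 genes held 44 regions, of which 37 were called in all 4 libraries, against 66.4% of the 2973 regions and 62.0% of all regions. Their median width was 880.5 bp, against 554 bp over the 2973 regions.

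All 4 lncRNA genes on the X-inactivation list had a region. Xist, the RNA that coats the inactive X chromosome, had 2. The strong one (chrX:103481182-103482358) lay 875 bp inside the gene from its start, with a −log10 q of 139.9 and 92.7 in siChst7 and 152 and 137 in siControl. The one over the start, which contains the window printed above, was weak and called only in siChst7 replicate 1, at 14.6, and in siControl replicate 2, at 14.4. Jpx, an activator of Xist, had 98.0 and 87.8 in siChst7 and 101 and 107 in siControl over its start. Firre, whose RNA takes part in placing the inactive X in the nucleus, had 101 and 63.9 in siChst7 and 85.1 and 109 in siControl, so its groups overlapped. Ftx, another activator of Xist, was near the floor of the lists, at 4.37 and 6.54 in siChst7 and 9.51 and 10.0 in siControl, both siChst7 values below both siControl values.

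Of 10 imprinted lncRNA genes 4 had a region in all 4 libraries. Kcnq1ot1, made from the paternal chromosome and silencing its neighbours in cis, had a 1512 bp region over its start (chr7:143295505-143297016) with a −log10 q of 145 and 100.2 in siChst7 and 141 and 153 in siControl. Airn, the antisense RNA that silences Igf2r on the paternal chromosome, had 79.2 and 44.6 in siChst7 and 85.7 and 61.1 in siControl. Peg13, made from within Trappc9, had 102 and 75.4 in siChst7 and 100.5 and 94.7 in siControl. In each of these 3 genes siChst7 replicate 2 was the lowest library. The region of Mirg, a microRNA-rich transcript of the Dlk1 and Meg3 cluster, lay 312 bp beyond its 3′ end and had 151 and 127 in siChst7 and 153 and 133 in siControl. H19, Meg3, Rian, Snhg14, Gm32061 and Nctc1 had no region within 1 kb of an end in any library. Peak lists do not tell the parental alleles apart.

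The nuclear RNAs Malat1 and Neat1, of speckles and paraspeckles, and Norad, which binds Pumilio proteins, all had a region in all 4 libraries. Over the Malat1 start the −log10 q was 80.6 and 43.4 in siChst7 and 66.8 and 89.5 in siControl. Over the upper end of Neat1 it was 81.8 and 63.0 in siChst7 and 90.3 and 83.2 in siControl. Folds were low at both genes, from 4.28 to 5.46 over the Malat1 start and from 3.52 to 3.61 at Neat1. Norad had 37.3 and 32.1 in siChst7 and 53.3 and 61.1 in siControl, with both siChst7 libraries below both siControl libraries. The same order of raw values was seen at other listed genes, among them Snhg5, Snhg15, Trp53cor1, Oip5os1 and Carmn. By rank the groups overlapped at Snhg5, with percentiles of 92.8 and 96.2 in siChst7 and 95.2 and 95.9 in siControl. Of the 37 listed-gene regions called in all 4 libraries, 7 ranked above and 8 below, against 20.2% each way over all regions. The order at these genes is thus no result about the listed genes. Since −log10 q grows with depth, the groups are compared by rank further below.

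Hosts of small nucleolar RNAs mostly lay close to coding genes. Of 19 on the list, 12 had regions only within 5 kb of a coding gene end, among them Gas5 and Zfas1, 6 met the rule and 1, Snhg11, had none. The strongest of the 44 regions of listed genes was that over the start of Dancr, with 293 and 226 in siChst7 and 286 and 235 in siControl. Snhg5 had 173 and 169 in siChst7 and 207 and 217 in siControl, and Snhg15 had 161 and 136 in siChst7 and 198 and 186 in siControl. The strongest regions of Snhg17, Snhg20 and Snhg4 lay between 54.1 and 137.

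Genes of growth control and p53 met the rule in 7 of 11 cases, all 7 in all 4 libraries. Trp53cor1, a p53-induced RNA beside Cdkn1a, had a region over its upper end with 157 and 131 in siChst7 and 196 and 174 in siControl. Oip5os1 had 169.9 and 122 in siChst7 and 184 and 183 in siControl. Dleu2, which hosts microRNAs, had 186 and 129 in siChst7 and 193 and 182 in siControl at a region 531 bp inside its start. In Trp53cor1, Oip5os1 and Dleu2 siChst7 replicate 2 was again the lowest. Pvt1, beside Myc, had 39.9 and 38.6 in siChst7 and 47.0 and 37.7 in siControl. Morrbid, known as a regulator of the pro-apoptotic gene Bcl2l11 in myeloid cells, had 87.6 and 72.6 in siChst7 and 78.1 and 79.7 in siControl.

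Of 12 microRNA host genes 4 met the rule, 1, Mir155hg, had a region only within 5 kb of a coding gene end, and 7 had none. Mir22hg had 199.7 and 141 in siChst7 and 222 and 201 in siControl. Dnm3os, antisense to Dnm3 and expressed in mesenchymal cells, had a region at each end. At its start the values were 99.97 and 104 in siChst7 and 103 and 93.5 in siControl, and at its 3′ end 66.6 and 52.8 in siChst7 and 60.9 and 40.8 in siControl. Mir100hg had 58.0 and 35.7 in siChst7 and 52.0 and 51.6 in siControl, and Mir670hg had 5.70 to 14.9 over the 4 libraries.

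Of 8 heart lncRNA genes in the annotation, 3 met the rule. Carmn, known from human cardiac precursor cells and from smooth muscle, had a 1615 bp region over its upper end (chr18:61665111-61666725) with 134 and 125 in siChst7 and 169.9 and 165 in siControl. Bvht, a mouse RNA of cardiac commitment, had a region over each end. At its lower end (chr18:61639560-61640113) the values were 22.8 and 10.3 in siChst7 and 38.3 and 30.1 in siControl, with no overlap of the groups. At its upper end they were 22.1 and 31.6 in siChst7 and 40.7 and 30.4 in siControl, and the groups overlapped. Miat had a single weak region, called only in siControl replicate 1. Mhrt, Fendrr and Gata6os had regions only within 5 kb of a coding end, and Chaer1 and Hand2os1 had none. No lncRNA of the HOX clusters met the rule, since 5 of the 9 had regions only within 5 kb of a coding end and 4 had none.

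**Figure D3:**
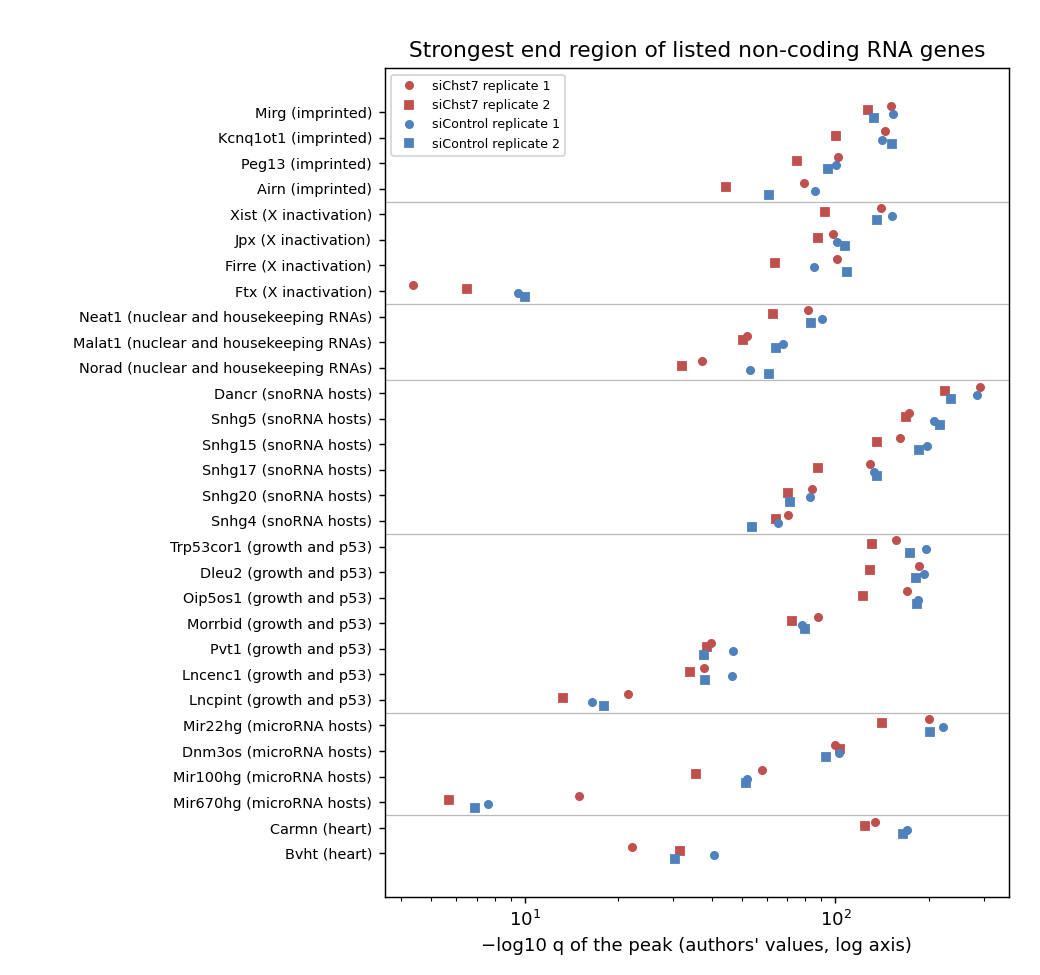
Deposited −log10 q (x axis, log scale) of 1 end region of each listed lncRNA with a region in all 4 libraries, the one whose lowest library is highest (y axis, list in brackets), 1 point a library. Values run from 4.37 at Ftx to 293 at Dancr, and siChst7 replicate 2 is the lowest point in many rows.

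Regions near marker genes numbered 6 or fewer for every cell type, and the rate near coding genes in general was not computed. The counts called in all 4 libraries are read against 66.4% of the 2973 regions and 62.0% of all regions, and carry no test. Members whose nearest coding gene, within 100 kb, was a fibroblast marker numbered 6, of which 4 were called in all 4 libraries. One at the 3′ end of Gm31154, near Postn, had a −log10 q of 22.9 and 26.7 in siChst7 and 18.3 and 17.4 in siControl. A pair at the 3′ end of Gm46293, near Col1a1, had 38.5 and 31.9, and 82.4 and 70.0, in siChst7, and 38.3 and 43.9, and 96.5 and 65.3, in siControl. The others lay at Gm20471 near Prrx1, at Gm34114 near Dcn and at Gm39323 near Thy1. Cardiomyocyte markers had 2. The one at the 3′ end of Gm17382, near Nkx2-5, was called in all 4 libraries, with 98.0 and 75.1 in siChst7 and 93.6 and 94.1 in siControl, although Nkx2-5 itself had no region at an end. The one at Gm31251, near Myh7, was called in 3. Epithelial markers, a shorter list of 6 genes, also had 6 such members, of which 5 were called in all 4 libraries, at Gm41404 and Gm41405 near Krt8 and Krt18 and at Gm46587 and Gm46609 near Epcam. The one at Gm41405 had a −log10 q of 197 and 147 in siChst7 and 182 and 161 in siControl. Endothelial markers had 3, of which 2 were called in all 4 libraries, and immune markers had 0.

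Promoter sequence was compared between 690 lncRNA promoter windows inside a region called in all 4 libraries (625 genes) and 7847 lncRNA windows over 5 kb from coding ends with no region (6543 genes). The AP-1 motif TGANTCA, the site of Fos and Jun dimers, was in 18.3% of the open windows (exact 95% interval 15.4% to 21.3%), in 9.46% (8.82% to 10.1%) of those with no region and in 7.81% of all 32851 RefSeq windows. The GC box GGGCGG, a site of Sp factors, was in 26.4% (23.1% to 29.8%) of the open windows, in 7.40% of those with no region and in 35.7% of all windows. AGATAA, a site of GATA factors, ran the other way, at 9.71% (7.60% to 12.2%) of the open windows, 16.3% of those with no region and 11.2% of all. The TEAD motif GGAATG was at 19.7%, 16.9% and 14.7% in the same order, and CCAAT at 32.8%, 37.2% and 37.4%. The MEF2 motif, a long stretch rich in A and T, was rare, in 10 open windows (1.45%), against 0.357% of those with no region and 0.402% of all. TATAAA was in 13.5% of the open windows, 17.7% of those with no region and 13.6% of all, and the E-box CANNTG was in 77.1%, 81.5% and 72.3%. Median GC content was 51.7% in the open windows, 46.7% in those with no region and 52.7% in all, and the part of base composition in these shares was not tested. Both strands were searched, motifs may overlap, and a match is a run of letters, not a bound site. Some genes have several windows, which can overlap, as at Snhg17. The windows are therefore not independent, and the intervals hold counting error only.

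**Figure D4:**
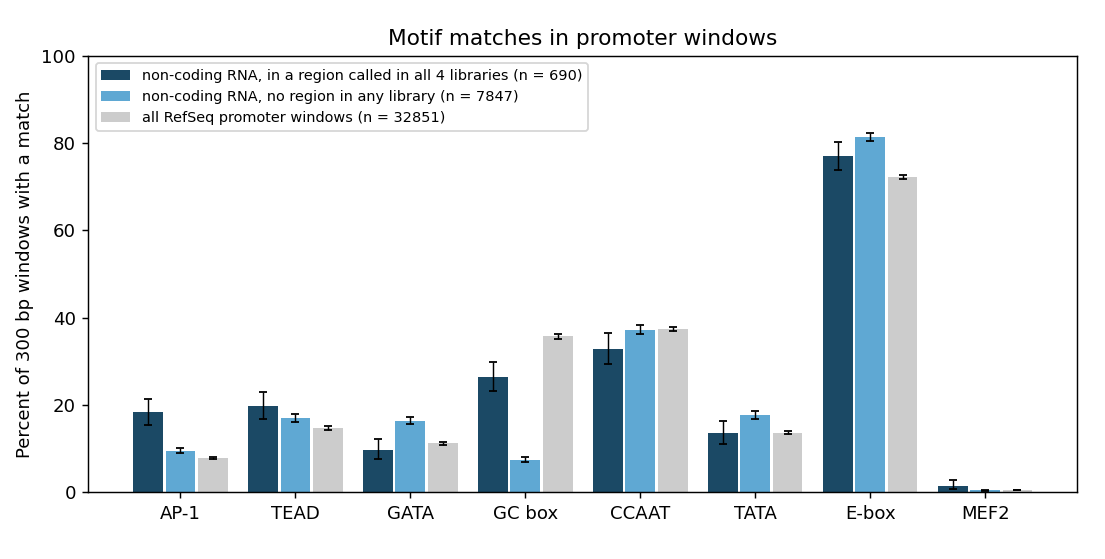
Percent of 300 bp promoter windows (y axis) that hold each of 8 motifs (x axis), for lncRNA windows inside a region called in all 4 libraries, lncRNA windows with no region and all RefSeq windows. Error bars show exact 95% intervals, counting error only. The AP-1 motif is at 18.3% of the open windows and under 10% in both other sets, and the GC box at 26.4% lies between them.

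Between the siRNAs, the share of peaks at lncRNA ends was close. It was 3.38% and 3.44% in siChst7 and 3.44% and 3.41% in siControl, a mean of 3.41% ± 0.0386 and 3.43% ± 0.0153 (SD, n = 2 each). The difference of −0.0172 percentage points was smaller than the spread between the siChst7 replicates (exact permutation test, two-sided p = 0.67, with 0.33 the smallest p that 2 against 2 allow). It turned to 0.00829 without siChst7 replicate 1.

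A region with a peak in both siChst7 libraries and in neither of the siControl libraries was termed siChst7-specific. Of the 2973 regions, 25 (0.841%) were siChst7-specific, against a background of 1.24% over all 90202 regions. The reverse call, siControl-specific, was met by 82 (2.76%), against a background of 2.84%. Both shares lie at or below those of all regions, so the counts are no result about lncRNA ends. The balance between the calls moved with list length. With each list held to its strongest 66079 peaks, 44 of 2702 lncRNA end regions (1.63%) were siChst7-specific and 63 (2.33%) siControl-specific, against 1.97% and 2.05% of all regions. Leaving out a library loosens the call, because 1 library then stands for its group. Without siChst7 replicate 1 there were 75 siChst7-specific and 245 siControl-specific regions, and without siChst7 replicate 2 there were 155 and 129. Without siControl replicate 1 there were 76 and 227, and without siControl replicate 2 there were 66 and 204. No share over all regions was computed with a library left out, so these counts are no result about lncRNA ends.

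Most group-specific regions were weak. The lower of the pair of −log10 q values had a median of 5.55 in siChst7-specific and 7.15 in siControl-specific regions, and the lowest of 4 had a median of 27.8 in regions called in all 4 libraries. The median widths of the group-specific regions were 336 and 318 bp, against 706 bp. Over all siChst7-specific and siControl-specific regions of the series, the median lower −log10 q was 5.23 and 6.07. The median widths there were 353 and 332 bp, so low values in group-specific regions are not particular to lncRNA ends. Requiring a −log10 q of at least 5, lists of equal length and peaks at least 200 bp wide, each in turn, 11 of the 25 siChst7-specific and 38 of the 82 siControl-specific regions kept the call under all 3. The same share was not computed over all group-specific regions, so these counts are no result about lncRNA ends.

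The strongest siChst7-specific region lay 333 bp beyond the 3′ end of 4833428L15Rik (chr9:45415878-45416293), 5.60 kb from Fxyd2, with a −log10 q of 13.4 and 15.4 in siChst7 and no peak in siControl. It lost the call among peaks at least 200 bp wide. Gm42204 (chr3:33907728-33908063) had 12.9 and 13.3, Gm14002 (chr2:125219298-125219626) had 12.2 and 19.1 and Gm30391 (chr6:71149533-71149812) had 11.7 and 16.7, and all 3 kept the call under those 3 filters. Gm42072, at 8.70 and 7.08, and 4930439A04Rik, at 9.96 and 7.02, lost it among peaks at least 200 bp wide. None of these 6 regions lay over a gene end, and the annotation gives no role for these genes.

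Among siControl-specific regions the highest values were at Gm24463 (chr9:89066811-89067002), which had no peak in siChst7 and a −log10 q of 63.4 and 75.2 in siControl, with folds of 19.4 and 22.4. That region is only 192 bp wide and lost the call among peaks at least 200 bp wide, as did Gm36166. Gm40529 (chr9:67156835-67157136) had 34.7 and 34.3 in siControl, 1500009C09Rik (chr15:82259466-82259788) had 27.0 and 29.9 and Gm38962 (chr11:97619384-97619771) had 30.4 and 23.2. Gm32829 (chrX:7473596-7474134), over the gene start, had 21.1 and 23.0 in siControl. These 4 regions had no peak in siChst7 and kept the call under the 3 filters.

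For the 1975 regions called in all 4 libraries, strength was compared by rank, since −log10 q grows with depth. Each library's −log10 q was ranked over the same 55907 regions called in all 4 libraries, as a percentile. In both siChst7 libraries 439 regions (22.2%) ranked above both siControl libraries, against a background of 20.2%. Below both were 392 (19.8%), against a background of 20.2%. The median shift, siChst7 mean minus siControl mean, was 0.0836 percentile points, against −0.0362 over all regions, 0.464 over other distal regions and −0.459 at coding gene ends. Its sign turned for regions over the end alone (−0.285) and in 3 other settings, so it carries no direction. The median size of the shift between groups was 3.87 points, and the median difference was 4.55 between the siChst7 replicates and 3.96 between the siControl replicates, against 3.83, 4.59 and 4.25 over all regions. The shift is a difference of 2-library means and the others are differences of single libraries, so their sizes are not comparable with each other. Groups that did not overlap and differed by at least 10 points were seen in 136 regions (6.89%) upwards and 122 (6.18%) downwards, against 7.26% and 6.90% of all regions. Shifts of that size were thus about as common at lncRNA ends as over all regions.

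**Figure D5:**
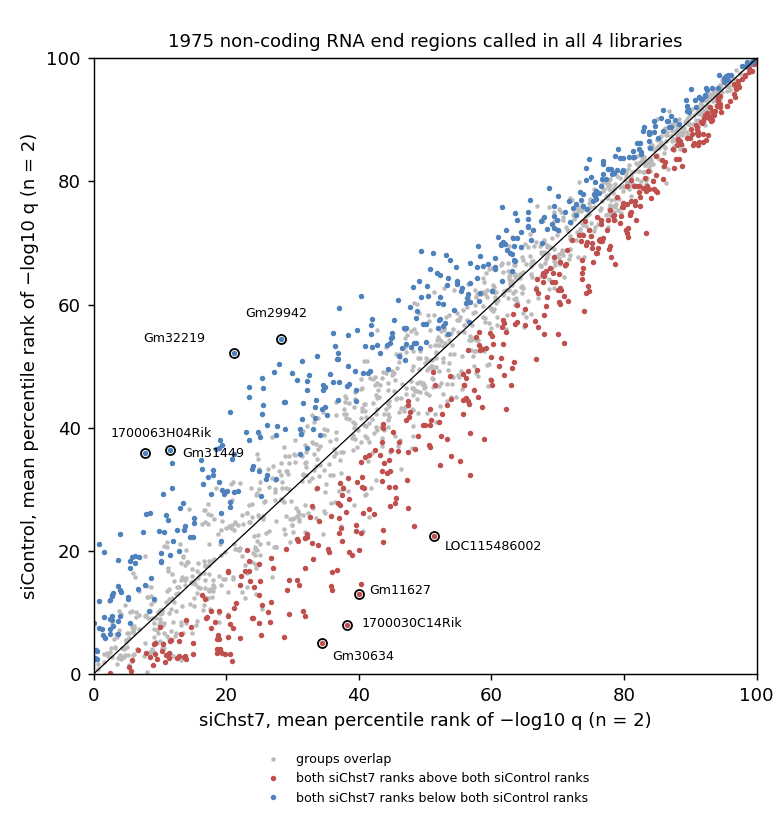
Mean percentile rank of −log10 q in siChst7 (x axis, n = 2) against siControl (y axis, n = 2) for the 1975 lncRNA end regions called in all 4 libraries, 1 point a region. Red points are the 439 whose siChst7 ranks are both above the siControl ranks, blue points the 392 with both below, and circles the 8 named regions with the largest shifts.

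The 4 largest upward shifts were at 1700030C14Rik, Gm30634, LOC115486002 and Gm11627. At 1700030C14Rik (chr2:152652746-152653245), over the 3′ end, the percentile was 41.9 and 34.5 in siChst7 and 6.52 and 9.41 in siControl, a shift of 30.2 points. Gm30634 shifted by 29.4 points, LOC115486002, inside Grik1, by 28.9, and Gm11627 by 27.0. At Gm30634 the −log10 q was 31.2 and 14.6 in siChst7 and 4.92 and 9.74 in siControl, so its siChst7 replicates differ by more than the groups' nearest libraries do.

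The 4 largest downward shifts were at Gm32219, 1700063H04Rik, Gm29942 and Gm31449. At Gm32219 (chr12:70544953-70545545) the percentile was 25.8 and 16.4 in siChst7 and 52.8 and 51.5 in siControl, a shift of −31.0 points. Gm31449 (chr5:9073350-9073755), whose promoter window is printed above, had 6.58 and 16.5 in siChst7 and 37.1 and 35.7 in siControl, a shift of −24.8 points. Gm29942, also over a gene start, shifted by −26.2 points and 1700063H04Rik by −28.0. At 1700063H04Rik siControl replicate 1 stood alone, at 50.1 against 21.6 in siControl replicate 2. These 8 regions were chosen for the size of their shift, so their values are a description.

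Among the 37 listed-gene regions called in all 4 libraries, 7 ranked above and 8 below without overlap of the groups, against a background of 20.2% each way over all regions, and the median shift was −0.996 points. None of the 44 was group-specific, against backgrounds of 1.24% siChst7-specific and 2.84% siControl-specific, so these counts are no result about the listed genes. The largest shift was that of the lower end of Bvht, at −23.1 points, with percentiles of 31.7 and 15.0 in siChst7 and 50.6 and 42.5 in siControl. Its siChst7 replicates thus differ by more than the groups' nearest libraries do, and its folds were low, from 2.91 to 4.45. It is named as the largest of the 37, so its value is a description. Norad followed at −12.5 points, with 50.1 and 54.3 in siChst7 and 62.3 and 67.2 in siControl. Upwards, Gm41556, at the lower end of Trp53cor1, shifted by 10.3 points and the 3′ end of Dnm3os by 10.2, with percentiles at Dnm3os of 69.8 and 70.7 in siChst7 and 66.6 and 53.4 in siControl. Carmn shifted by −2.13 points, Kcnq1ot1 by −0.996 and the strong Xist region by −1.78. With 2 libraries a group no single region can pass an exact test, since the smallest two-sided p is 0.33.

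By promoter motif, the shares are read against the background of 20.2% each way. Regions with an AP-1 motif (115) ranked higher without overlap in 28.7% and lower in 17.4%, with a median shift of 0.845 points, and their median percentile was 62.2. Regions with a promoter window that lacks it (499) ranked higher in 19.8% and lower in 22.8%, with a median shift of −0.351 points and a median percentile of 61.2. Regions with a GC box (158) ranked higher in 15.2% and lower in 23.4%, with a median shift of −0.555 points and a median percentile of 75.4. Regions with the GATA motif (64) ranked higher in 26.6% and lower in 14.1%, with a median shift of 0.00559 points. Those with the TEAD motif (126) ranked higher in 22.2% and lower in 18.3% (0.115 points), and those with CCAAT (200) higher in 22.0% and lower in 21.5% (−0.0990 points). Those with TATAAA (85) ranked higher in 20.0% and lower in 18.8% (0.983 points), and those with an E-box (473) higher in 23.0% and lower in 21.8% (0.0948 points). Of 7 regions with the MEF2 motif, 0 ranked higher and 2 lower. No motif is singled out by these values. They are shares of regions in 1 set of 4 libraries and carry no test, and a region with several promoter windows can count on both sides.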

How the data were processed

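Each library has its own deposited peak list, made without pooling replicates. Per the submitters' processing notes, mm10 was the build and MACS3, Bowtie, SAMtools, HOMER and bedtools were used, in roles that the notes do not give. How duplicates, Tn5 cut shifts and excluded regions were handled is not given in the sources used. As deposited, the score of a peak is its −log10 q times 10 in whole numbers. The authors' fold is a linear ratio of the summit pileup over background. The authors also deposited a −log10 p and a −log10 q for each summit, and their lists stop at a q-value of about 0.01. These values describe or rank peaks within a list and were never tested between libraries. Read depth is unknown.

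Peaks on chromosomes 1 to 19 and X were merged at 1 bp with Python 3.11.15, pandas 2.3.3 and NumPy 2.4.6, and plots were drawn with matplotlib 3.10.9. Left out per library were 24 to 28 peaks on Y, 4 on the mitochondrial genome and 58 to 73 on unplaced sequences. Gene positions came from the RefSeq table of GRCm38.p6, which holds 12697 lncRNA and 21631 protein-coding genes on these chromosomes and 0 of the biotype ncRNA. Strand came from RefSeq promoter windows and was known for 2276 regions. Exons are not told apart. A region takes the strongest peak of each library. Exact permutation tests over libraries were two-sided, and intervals are exact binomial at 95% (SciPy 1.17.1). Merging, the choice of regions by distance and the group calls were tested on simulated peak lists. The permutation tests, rank shifts, strands and motif search were not tested in this way. Named are the listed genes, the 10 strongest and 5 widest regions, the 6 strongest of each group-specific kind, the 4 largest rank shifts each way and the genes with the most regions. Genes near markers are named as well. The regions and gene lists were chosen with earlier results of these data known. Equal replicate numbers do not pair the samples in the labels, and the deviations of same-numbered libraries had a correlation of 0.0114. Alternatives were the filters on peaks, windows, distances and libraries given in the closing section. Curated genes only and regions over the end only were added after seeing the data.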

Additional observations from a re-analysis of the deposited data

How the results depend on the processing

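Against 2973 regions, a 2.5 kb window gave 5251, curated genes 830 and regions over the end 942, and leaving out 1 library gave 2820 to 2915. Against 66.4% called in all 4 libraries, the share was 68.3% at a −log10 q of at least 5, 71.6% at 10, 68.9% with equal list length, 56.6% with 200 bp summit windows, 70.4% within 500 bp, 63.6% within 2.5 kb, 69.2% at curated genes, 82.9% over the end and 70.7% to 73.1% without 1 library, where 3 calls suffice. Against 25 siChst7-specific regions there were 44 with equal list length, 44 with summit windows, 15 within 500 bp, 62 within 2.5 kb, 4 at curated genes, 3 over the end and 66 to 155 without 1 library. Against 82 siControl-specific regions there were 52 within 500 bp, 143 within 2.5 kb, 26 at curated genes, 17 over the end and 129 to 245 without 1 library. Fewer or more regions under a smaller or larger window follow from its construction. Among these settings, group-specific shares over all regions were computed only for equal list length. The group-specific counts are thus no result about lncRNA ends.

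The share difference of −0.0172 percentage points turned to 0.0275 at a −log10 q of at least 10, 0.0106 within 500 bp, 0.0129 at curated genes and 0.0291 over the end, and ran from −0.0419 to 0.00829 without 1 library. The cause was not tested. The median rank shift of 0.0836 also changed sign, to −0.285 over the end, −0.0892 within 500 bp, −0.0273 with coding ends over 2 kb away and −0.0326 at curated genes, and was 0.0764 to 0.245 without 1 library. The width difference of 64.8 bp kept its sign under 14 alternatives (43 to 197 bp; 65.2 to 66.5 bp without 1 library), and the fold difference of 0.478 under 15 (0.127 to 1.80; 0.476 to 0.513 without 1 library). Summit windows give no width. With the replicate number as a block, the pair differences in share were −0.0553 and 0.0209, a mean of −0.0172 (exact p = 1, with 0.5 the smallest possible for 2 pairs). Files without read counts allow no floor for a peak that was not called, and an uncalled region may be open below the threshold of its list.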
